A study of Mus musculus with 30 samples.

Results

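Mitochondrial ribosomal proteins were taken as all probe sets on the Affymetrix MOE430A mouse array whose annotation gives a single symbol beginning with Mrpl or Mrps and a digit. This rule found 127 of the 22626 probe sets that are not array controls. They measure 74 of the 12393 genes with a single symbol on the array, 47 named for the large subunit by 88 probe sets and 27 named for the small subunit by 39 probe sets. Another 3 probe sets carry such a symbol beside other symbols and were not used. A gene had 1 probe set in 41 cases and more in 33, up to 7 for Mrpl15.

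The arrays compared mice null for ERRγ (Esrrg) with wild-type mice in stomach, kidney, liver, salivary tissue and brain, with 3 arrays in each of the 10 groups. The animals of all groups were neonatal (the series design says perinatal), of a mixed SV129/C57BL/6 background, of unknown sex and fed standard chow, and received no treatment. The null allele is not described in the labels, which also do not say whether the 3 arrays of a group, or the tissues that carry the same replicate number, came from separate animals. P-values therefore measure the spread between these arrays, which may be technical, and the number of arrays limits the precision of every value.

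Mitochondria translate the few proteins encoded by their own DNA on a ribosome of their own. Its proteins are encoded in the nucleus, made in the cytosol and imported, and they join RNAs transcribed inside the organelle. The small subunit binds the messenger RNA and holds the decoding site, the large subunit forms the peptide bond, and what they make are core subunits of the respiratory chain and the ATP synthase. ERRγ is an orphan nuclear receptor of tissues with high oxidative demand, where it is known to act on nuclear genes of mitochondrial energy metabolism.

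Of the 74 genes, 44 have a counterpart in bacterial ribosomes and 29 are specific to mitochondria. The last, Mrps36, bears a ribosomal name but encodes a subunit of the oxoglutarate dehydrogenase complex. Mrps18a and Mrps30 are named for the small subunit but sit in the large subunit, and counts by subunit below go by the names. The genes lie on 17 chromosomes, with at most 11 on 1 of them (chromosome 11). The array values are log2 signals. To be tested in a tissue, a probe set needed an average across its 6 arrays at or above the 40th percentile of all averages, a level of 5.25 in liver to 5.39 in brain. By this rule 101 member probe sets were tested in all 5 tissues, 5 in 1 to 4 tissues and 21 in no comparison of null with wild-type mice, and every gene was tested in at least 1 tissue. The 21 dim probe sets had group means of 0.62 to 5.74.

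The promoters show what several of these genes carry around their start. RefSeq promoters on GRCm38.p6, running from 250 bases before to 50 bases after the start, were found for 65 of the 74 genes, 71 promoters in all. The 5 below were chosen for their matches. They are the 4 that hold AAGGTCA on either strand and that of Mrpl22, which holds both other motifs marked. Capitals mark matches to AAGGTCA on either strand, the core of the site that ERR proteins bind, to CCGGAAG, a core of ETS-family sites, or to GCATGCGC, a core of sites of NRF1, an activator of nuclear genes of mitochondria. Mrpl12 lies at chr11:120484387-120484686 on the plus strand, Mrps15 at chr4:126046678-126046977 on the plus strand, Mrpl36 at chr13:73330759-73331058 on the plus strand, Mrps21 at chr3:95871465-95871764 on the minus strand and Mrpl22 at chr11:58171414-58171713 on the plus strand.
Mrpl12: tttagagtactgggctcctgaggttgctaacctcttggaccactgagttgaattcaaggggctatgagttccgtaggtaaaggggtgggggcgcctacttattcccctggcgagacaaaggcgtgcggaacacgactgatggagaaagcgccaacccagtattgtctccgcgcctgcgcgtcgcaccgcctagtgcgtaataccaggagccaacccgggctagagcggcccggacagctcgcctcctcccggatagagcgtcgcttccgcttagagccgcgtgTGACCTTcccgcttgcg
Mrps15: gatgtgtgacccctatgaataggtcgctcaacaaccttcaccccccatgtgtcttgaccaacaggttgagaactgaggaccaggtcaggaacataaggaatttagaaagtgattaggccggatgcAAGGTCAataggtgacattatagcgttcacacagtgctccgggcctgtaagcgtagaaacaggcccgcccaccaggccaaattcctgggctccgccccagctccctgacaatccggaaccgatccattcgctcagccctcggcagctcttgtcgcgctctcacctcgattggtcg
Mrpl36: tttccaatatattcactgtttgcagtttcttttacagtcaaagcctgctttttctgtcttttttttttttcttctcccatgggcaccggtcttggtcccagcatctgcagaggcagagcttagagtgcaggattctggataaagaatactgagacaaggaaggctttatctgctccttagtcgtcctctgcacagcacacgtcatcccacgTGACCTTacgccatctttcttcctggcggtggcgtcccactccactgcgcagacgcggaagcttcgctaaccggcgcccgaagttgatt
Mrps21: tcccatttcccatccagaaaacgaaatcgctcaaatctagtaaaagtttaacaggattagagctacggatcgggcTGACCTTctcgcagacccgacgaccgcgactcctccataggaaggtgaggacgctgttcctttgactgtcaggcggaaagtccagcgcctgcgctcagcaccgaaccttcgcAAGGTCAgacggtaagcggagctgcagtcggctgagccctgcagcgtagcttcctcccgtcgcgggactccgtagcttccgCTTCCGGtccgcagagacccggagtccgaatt
Mrpl22: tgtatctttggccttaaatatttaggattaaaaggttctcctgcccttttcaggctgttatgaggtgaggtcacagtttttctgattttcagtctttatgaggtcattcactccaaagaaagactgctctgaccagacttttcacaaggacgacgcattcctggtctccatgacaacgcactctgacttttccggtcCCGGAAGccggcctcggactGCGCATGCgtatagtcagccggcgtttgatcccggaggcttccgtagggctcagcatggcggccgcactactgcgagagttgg

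The ERR core occurred in 4 of the 71 member promoters (5.63%), against 4.72% of all 32851 promoters of the same length, and those 4 were Mrpl12, Mrps15, Mrpl36 and Mrps21. In Mrpl12 the match begins 33 bases after the start on the minus strand, in Mrps15 125 bases before it on the plus strand, and in Mrpl36 39 bases before it on the minus strand. The promoter of Mrps21 holds it at 175 and at 63 bases before the start. The longer site TCAAGGTCA, searched on both strands, which contains that core, was in 0 of the 71 promoters and in 0.423% of all. The ETS core was in 24 member promoters (33.8%), against 8.86% of all, and the NRF1 core in 8 (11.3%), against 2.71% of all. Promoters of cytosolic ribosomal proteins held the ETS core in 36.4% and the NRF1 core in 4.55% of cases. Member promoters averaged 58.8% G and C, against 53.8% over all promoters. The promoters of Mrpl49, Mrps25 and Mrpl42, among the largest average falls given below, held 0 matches to these motifs and are not shown. These are counts of letters in a window, and no binding was measured.

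The labelled tissues matched their defining markers in wild-type mice. Atp4a, the acid pump subunit of parietal cells, averaged 10.46 in stomach, Umod of kidney tubules 10.75 in kidney, albumin (Alb) 12.94 in liver, Bpifa2 12.93 in salivary tissue and the neuronal Snap25 10.02 in brain. The array medians lay between 5.80 and 6.08. The only probe set for Esrrg does not check the genotype labels, since its position relative to the deleted part is not known here. It averaged 6.48 ± 0.085 on the 3 null stomach arrays and 5.99 ± 0.053 on the 3 wild-type stomach arrays (SD, adjusted p = 0.0312 by limma), and passed in none of the other 4 tissues.

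In stomach, mitochondrial ribosomal protein transcripts were lower in null mice under both large-subunit and small-subunit names. Of 101 tested member probe sets, 26 fell and 1 rose (limma, adjusted p under 0.05), against 12.2% lower and 11.2% higher (23.5% in either direction) over all probe sets. Counted by the brightest probe set of each gene, 21 of 72 genes fell. The median difference, null minus wild-type, was -0.22 for the members and 0.03 for all tested probe sets. A lower mean in null stomach was seen for 71 of 101 members. In 41 of 101 the 3 null values all lay below the 3 wild-type values, against 20.4% over all probe sets, and in 6 they all lay above, against 22.4%.

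**Figure D1:**
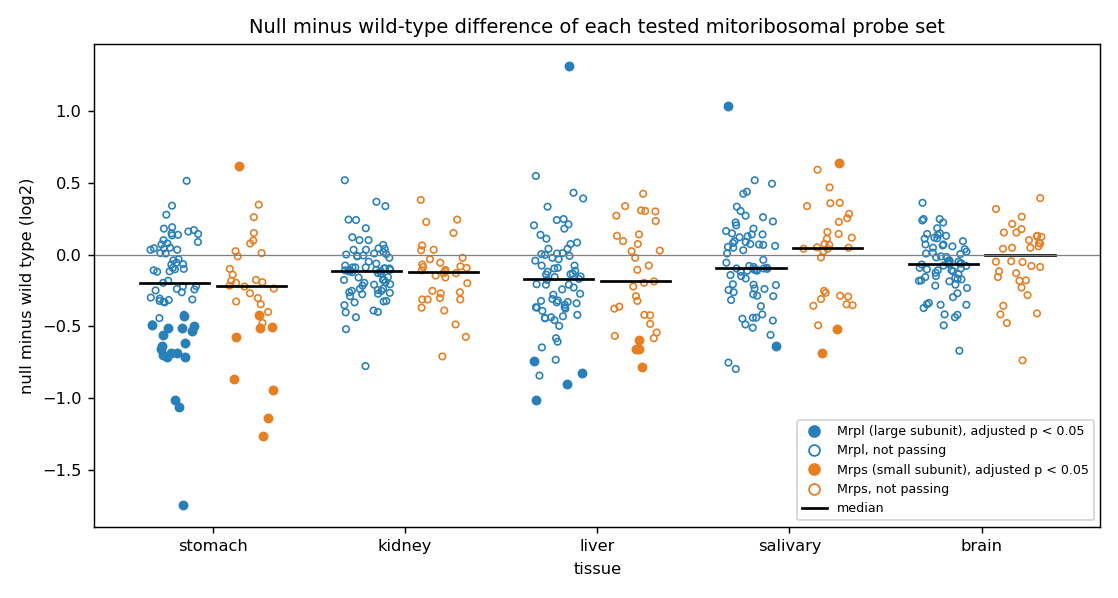
Null minus wild-type difference (log2) of each tested probe set of the mitochondrial ribosome in 5 tissues, large-subunit names in blue and small-subunit names in orange, filled where the adjusted p was under 0.05, with a black line at the median. Stomach has 26 filled points below 0 and 1 above, liver 8 and 1, salivary tissue 3 and 2, and kidney and brain have none.

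The largest fall was that of Mrpl12, the large-subunit protein of the mobile stalk that recruits translation factors. It read 5.74, 6.70 and 6.08 in null stomach, against 7.82, 8.00 and 7.93 in wild-type stomach. All null values lie more than a full log2 unit below the lowest wild-type value, and the difference was -1.74 ± 0.22 (SE, adjusted p = 0.00231). Mrpl10, which anchors that stalk, read 6.89, 6.97 and 7.18 in null stomach, against 7.70, 7.92 and 7.52 in wild-type stomach, a difference of -0.70 ± 0.15 (SE, adjusted p = 0.012). Mrpl12 and Mrpl10 were thus lower without overlap of the groups. Mrpl11 of the stalk base did not pass in stomach, with differences of 0.19, 0.04 and -0.03 on its 3 tested probe sets.

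Among other large-subunit genes with bacterial counterparts, Mrpl2, which lies near the peptidyl transferase centre, read 7.05, 7.03 and 7.44 in null and 7.97, 8.20 and 8.38 in wild-type stomach. Its difference was -1.01 ± 0.16 (SE, adjusted p = 0.00486). Probe set 1450866_a_at for Mrpl17 read 6.98, 7.35 and 7.24 in null and 7.92, 7.64 and 8.15 in wild-type stomach. Its difference was -0.71 ± 0.16 (SE, adjusted p = 0.0168). Neither of these probe sets had overlapping groups. The other tested probe set for Mrpl17, 1450867_at, went the other way. It read 5.83, 6.13 and 5.94 in null and 5.72, 5.35 and 5.29 in wild-type stomach, differed by 0.51 and did not pass. Of the mitochondria-specific large-subunit proteins, Mrpl42 read 7.66, 7.97 and 7.38 in null and 8.80, 8.65 and 8.75 in wild-type stomach, a difference of -1.06 ± 0.16 (SE, adjusted p = 0.0038). Mrpl46 read 7.40, 7.45 and 6.73 in null and 7.67, 7.87 and 8.18 in wild-type stomach, a difference of -0.71 ± 0.21 (SE, adjusted p = 0.0415). Its groups lay close together without overlapping.

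In the small subunit, the mitochondria-specific Mrps25 gave the smallest p. Its values were 6.07, 6.25 and 5.85 in null and 7.14, 7.23 and 7.22 in wild-type stomach, a difference of -1.14 ± 0.14 (SE, adjusted p = 0.00222). Both groups were tight and far apart. Mrps15, a homolog of a bacterial protein that binds the small-subunit RNA, spread more widely at 5.37, 6.82 and 5.83 in null and 7.57, 7.23 and 7.01 in wild-type stomach. Its difference was -1.26 ± 0.33 (SE, adjusted p = 0.0259), and a second probe set for it fell by 0.58 (adjusted p = 0.0277). Mrps5 read 5.62, 5.22 and 5.56 in null and 6.51, 6.19 and 6.52 in wild-type stomach, a difference of -0.94 ± 0.18 (SE, adjusted p = 0.00875). Mrps21 read 6.74, 7.46 and 7.05 in null and 7.92, 7.99 and 7.95 in wild-type stomach, a difference of -0.87 ± 0.18 (SE, adjusted p = 0.0111). None of the 4 small-subunit genes had overlapping groups.

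The single rise was that of probe set 1439210_at for Mrps9, at 6.77, 6.76 and 6.85 in null and 6.22, 6.46 and 5.86 in wild-type stomach. The difference was 0.61 ± 0.17 (SE, adjusted p = 0.0323), while the other 3 probe sets for Mrps9 differed by -0.19, 0.10 and 0.08 and did not pass. The remaining 15 probe sets that fell did so by 0.42 to 0.68, among them Mrpl22, Mrpl49, Mrpl3, Mrpl19, Mrps24, Mrps26 and Mrps18b. The brighter probe set for Mrpl3, 1422464_at, differed by 0.05 and did not pass. Nor did the other probe set for Mrps24, 1438563_s_at, which differed by 0.01. Of the 19 genes with more than 1 tested probe set in stomach, 13 had probe sets of mixed sign.

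**Figure D2:**
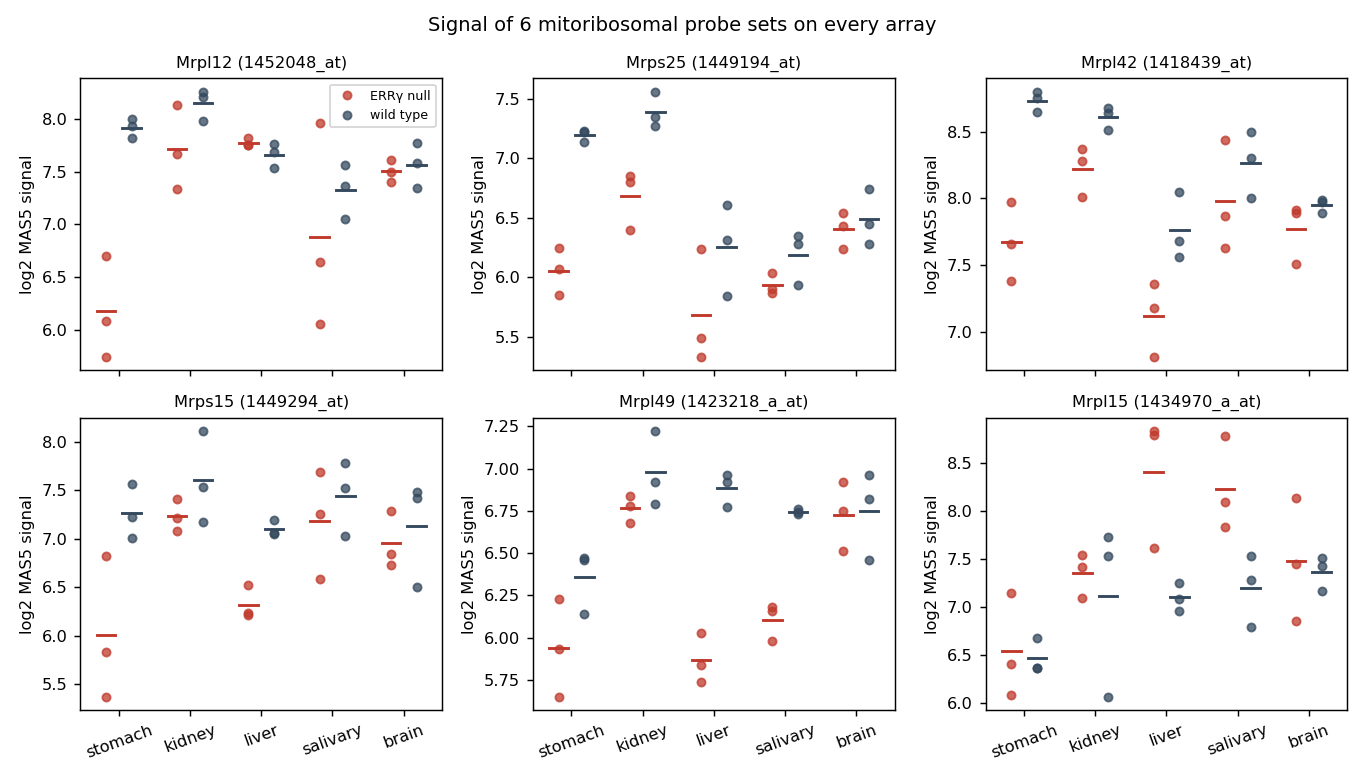
Log2 signal of 6 probe sets on all 30 arrays by tissue, with null arrays in red at the left of each pair, wild-type arrays in dark blue at the right, and a bar at each group mean. Mrpl12, Mrps25, Mrpl42 and Mrps15 fell in null stomach, Mrps15 and Mrpl49 in null liver, and Mrpl15 rose in null liver and salivary tissue.

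Both kinds of name, and proteins with and without bacterial counterparts, contributed to the falls in stomach. Large-subunit names gave 18 falls in 69 probe sets (median difference -0.20), and small-subunit names 8 falls and 1 rise in 32 (median -0.22). Probe sets of genes with bacterial counterparts gave 18 falls and 1 rise in 61 (median -0.22), and those of mitochondria-specific genes 8 falls in 39 (median -0.20). The 3 null arrays each sat below the wild-type arrays. The median member deviated from its wild-type mean by -0.31, -0.10 and -0.22 on the null stomach arrays and by 0.01, -0.03 and 0.01 on the wild-type ones.

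Genes of cell types and of RNA quality moved with genotype in stomach too. All 6 parietal cell markers were lower, with a summed level of 9.39 to 9.59 in null and 12.26 to 12.35 in wild-type stomach, and Atp4a fell by 5.04 to a mean of 5.43 in null, against 10.46 in wild-type stomach. In whole tissue, fewer cells of a type and less RNA per cell cannot be told apart. Of 18 tested genes of dividing cells, 17 fell (median -1.05). The gap between the 3′ and 5′ control probe sets of Gapdh, which widens with RNA degradation, averaged 3.77 ± 0.22 on the null arrays and 2.60 ± 0.45 on the wild-type arrays (SD, n = 3 each). Alb read 6.81, 6.19 and 7.06 on the null arrays, against 5.93, 10.25 and 11.90 on the wild-type arrays. All 9 hepatocyte markers were lower by their means, summed at 11.03 to 11.64 in null and 11.36 to 14.02 in wild-type stomach. Of 8 skeletal muscle markers 7 were lower, summed at 7.77 to 8.28 in null and 8.75 to 8.97 in wild-type stomach. The 6 markers of pancreatic acinar cells summed to 9.58 to 9.70 in null and 10.87 to 11.16 in wild-type stomach, although 4 of them were higher in null by their means. All 7 kidney tubule markers were higher, summed at 8.68 to 8.92 in null and 8.18 to 8.48 in wild-type stomach. The part of these markers other than Alb, and of the dividing-cell genes, in the result was not tested.

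When the fit held the Gapdh gap, limma made 0 of the 27 calls (2 over all probe sets), with a member median of -0.16. The gap read 3.97, 3.82 and 3.53 on the null and 2.40, 3.11 and 2.28 on the wild-type arrays, without overlap. That fit therefore cannot tell RNA quality from genotype. When the fit held the Alb level, limma made 3 calls (504 over all), with a median of -0.25. Omitting wild-type replicates 2 and 3, which read high for Alb, left a lone wild-type array and a median of -0.26. Single arrays moved the count too, to 12 without null replicate 1, 13 without null replicate 3, and 16, 17 and 10 without wild-type replicates 1, 2 and 3. Mrpl12, Mrps25, Mrpl42, Mrpl2, Mrps5, Mrps21 and Mrpl10 passed without any single array, whereas Mrpl17, Mrpl46, Mrps15 and Mrps9 each lost the call without at least 2 of them (adjusted p = 0.0559 to 0.136).

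**Figure D3:**
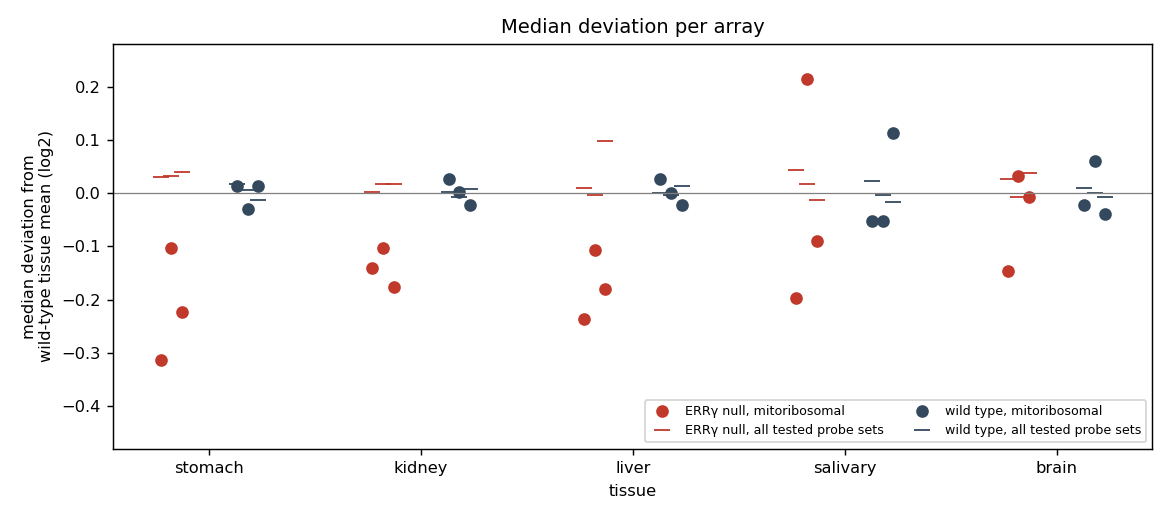
Median deviation from the wild-type tissue mean (log2) on each array, over member probe sets (circles) and over all tested probe sets (dashes), null in red and wild-type in dark blue. The null circles lie below all wild-type circles in stomach, kidney and liver and overlap them in salivary tissue and brain.

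In kidney the members were lower in null mice by a small amount, and no probe set passed the test. Of 105 tested, 0 were called by limma, against 0.368% lower and 0.412% higher (0.781% in either direction) over all probe sets. Without null replicate 2 the count was 1. Of the 105 members 21 had an unadjusted p under 0.05, as did 2013 of all 13577 probe sets. The median difference was -0.12, against 0.01 over all, and 81 of 105 members had a lower mean in null kidney. The groups did not overlap in 23 that were lower, against 9.81% over all probe sets, and in 4 that were higher, against 10.1%. The per-array medians were -0.14, -0.10 and -0.18 for null and 0.03, 0.00 and -0.02 for wild-type kidney, without overlap.

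The 3 smallest p-values in kidney are given as values. Mrps25 read 6.40, 6.85 and 6.80 in null and 7.56, 7.27 and 7.35 in wild-type kidney, a difference of -0.71 ± 0.16 (SE, adjusted p = 0.0734). Probe set 1423219_a_at for Mrpl49, a mitochondria-specific large-subunit protein, read 5.74, 5.95 and 5.47 in null and 6.63, 6.43 and 6.43 in wild-type kidney, a difference of -0.78 ± 0.17 (SE, adjusted p = 0.075). Mrps36 read 6.80, 7.15 and 6.89 in null and 7.67, 7.32 and 7.57 in wild-type kidney, a difference of -0.57 ± 0.15 (SE, adjusted p = 0.108). In all 3 the null values lay below the wild-type values. Genes of dividing cells had a median of -0.38 with 1 of 18 called, and kidney tubule markers were lower in 6 of 7 cases, summed at 12.72 to 12.93 in null and 12.99 to 13.29 in wild-type kidney. Of 6 erythroid markers 5 were higher, summed at 8.02 to 8.21 in null and 7.74 to 7.93 in wild-type kidney. Their part in the member values was not tested. The Gapdh gap was 2.67 ± 0.17 in null and 2.67 ± 0.31 in wild-type kidney (SD, n = 3 each).

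In liver 8 of 105 member probe sets fell and 1 rose, against 3.46% lower and 3.47% higher (6.93% in either direction) over all probe sets. The median difference was -0.18, against 0.03 over all, and 73 of 105 were lower in null liver by their means. The groups did not overlap in 26 lower members, against 12.6% over all probe sets, and in 6 higher ones, against 15.3%. Per-array medians were -0.24, -0.11 and -0.18 for null and 0.03, 0.00 and -0.02 for wild-type liver. Large-subunit names gave 4 falls and 1 rise in 72 (median -0.17) and small-subunit names 4 falls in 33 (median -0.19).

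The falls in liver were led by Mrpl49, at 6.03, 5.74 and 5.84 in null and 6.96, 6.92 and 6.77 in wild-type liver for probe set 1423218_a_at. The difference was -1.01 ± 0.17 (SE, adjusted p = 0.0121), and its other probe set differed by -0.73 (adjusted p = 0.075). Mrpl39, a mitochondria-specific large-subunit protein, fell on both of its probe sets. They differed by -0.90 ± 0.20 (SE, adjusted p = 0.0278) and -0.74 ± 0.15 (SE, adjusted p = 0.0201), and the second read 7.29, 7.48 and 7.38 in null and 8.13, 8.04 and 8.21 in wild-type liver. Mrpl22, a protein of the exit tunnel, read 7.61, 7.63 and 7.38 in null and 8.38, 8.30 and 8.41 in wild-type liver, a difference of -0.82 ± 0.15 (SE, adjusted p = 0.0146). The groups of these 3 genes lay apart on each called probe set.

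The small-subunit falls in liver were those of Mrps15, Mrps22, Mrps24 and Mrps28. Mrps15 read 6.23, 6.52 and 6.21 in null and 7.05, 7.19 and 7.06 in wild-type liver, a difference of -0.78 ± 0.17 (SE, adjusted p = 0.0257). The mitochondria-specific Mrps22 differed by -0.66 ± 0.17 (SE, adjusted p = 0.046). Mrps24, the counterpart of a bacterial protein at the messenger RNA entry, differed by -0.66 ± 0.16 (SE, adjusted p = 0.0389). Mrps28 read 7.67, 8.00 and 7.83 in null and 8.40, 8.42 and 8.46 in wild-type liver, a difference of -0.59 ± 0.15 (SE, adjusted p = 0.0455). In each of the 4 genes all null values lay below all wild-type values.

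The rise in liver came from 1 of the probe sets for Mrpl15, a large-subunit protein with a bacterial counterpart. Probe set 1434970_a_at read 8.79, 7.61 and 8.83 in null and 6.96, 7.08 and 7.25 in wild-type liver, a difference of 1.31 ± 0.30 (SE, adjusted p = 0.0322). The other 4 tested probe sets for Mrpl15 differed by -0.37 to 0.20 in liver and did not pass, so the gene's probe sets disagree. In stomach a different Mrpl15 probe set, 1434971_x_at, fell by 0.66 (adjusted p = 0.016).

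Among 9 tested regulators of mitochondrial genes, 4 rose in liver. Ppargc1a, a coactivator of ERR proteins, averaged 9.90 in null and 7.16 in wild-type liver and rose by 2.74 ± 0.27 (SE, adjusted p = 0.00193). Ppargc1b rose by 1.98, Myc by 1.04 and Esrra, the ERRα receptor, by 1.01 (adjusted p = 0.00745, 0.0496 and 0.0157). The 7 tested factors of mitochondrial translation all had lower means in null liver (median -0.29) and 0 passed limma's threshold. Of the 7, 3 had an unadjusted p under 0.05, as did 3093 of all 13577 probe sets. The Gapdh gap was 4.06 ± 0.13 in null and 4.51 ± 0.28 in wild-type liver (SD, n = 3 each), the opposite direction from stomach. The same gap for Actb was not lower in null liver, at 2.65 ± 0.41 in null and 2.52 ± 0.125 in wild-type liver. Of 7 brown fat markers 5 were higher, summed at 9.45 to 10.30 in null and 9.06 to 9.25 in wild-type liver, and of 6 erythroid markers 5 were higher, summed at 12.96 to 13.20 in null and 12.75 to 12.91 in wild-type liver. Their part in the member values was not tested.

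The count of 9 in liver depended on single arrays and on the Gapdh gap. It was 2, 18 and 1 without null replicates 1, 2 and 3, and 0 without wild-type replicate 1, 2 or 3. With the Gapdh gap as a covariate it was 0 (0 over all probe sets), where the median was -0.24. The gap read 4.16, 4.11 and 3.91 on the null and 4.25, 4.46 and 4.81 on the wild-type arrays, without overlap. That fit therefore cannot tell RNA quality from genotype. All 9 named probe sets lost the call without at least 3 single arrays, with adjusted p up to 0.16.

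In salivary tissue the members showed no common direction. Of 102 tested, 3 fell and 2 rose, against 4.72% lower and 3.5% higher over all probe sets. The median difference was -0.03, against 0.02 over all, and 52 of 102 had a lower mean in null tissue. The groups did not overlap in 12 lower members, against 15.1% over all probe sets, and in 8 higher ones, against 13.1%. Per-array medians were -0.20, 0.215 and -0.09 for null and -0.05, -0.05 and 0.11 for wild-type tissue, with overlap.

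The falls were in Mrps14, Mrps12 and Mrpl49. Mrps14, whose bacterial counterpart sits in the head of the small subunit, fell on probe set 1420488_at. That probe set read 6.75, 6.43 and 6.72 in null and 7.31, 7.37 and 7.28 in wild-type salivary tissue. Its difference was -0.69 ± 0.16 (SE, adjusted p = 0.0326). The brighter probe set for Mrps14, 1420489_at, was higher by 0.12 in null tissue and did not pass. Mrps12, a protein of the decoding site, read 8.02, 8.22 and 7.98 in null and 8.62, 8.51 and 8.65 in wild-type tissue, a difference of -0.52 ± 0.14 (SE, adjusted p = 0.0495). Mrpl49 (1423218_a_at) read 6.16, 6.18 and 5.98 in null and 6.74, 6.73 and 6.76 in wild-type tissue, a difference of -0.64 ± 0.17 (SE, adjusted p = 0.0495). The 3 probe sets that fell had groups that did not overlap.

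The 2 rises in salivary tissue were again in Mrpl15 and Mrps9. Mrpl15 (1434970_a_at) read 7.83, 8.78 and 8.09 in null and 7.28, 7.53 and 6.79 in wild-type tissue, a difference of 1.03 ± 0.27 (SE, adjusted p = 0.0466). Mrps9 (1448921_a_at) read 7.15, 7.12 and 7.40 in null and 6.59, 6.56 and 6.61 in wild-type tissue, a difference of 0.64 ± 0.16 (SE, adjusted p = 0.0397). All 4 Mrps9 probe sets and all 5 tested Mrpl15 probe sets had higher means in null salivary tissue, with 1 of each passing.

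Salivary samples also differed in tissues other than gland. All 7 brown fat markers were higher in null mice by their means, with a summed level of 13.01 to 14.25 in null and 10.68 to 13.58 in wild-type tissue. Ucp1, the uncoupling protein of brown fat, read 11.31, 12.75 and 11.02 in null and 5.99, 4.04 and 12.14 in wild-type tissue. All 8 skeletal muscle markers were higher too, summed at 8.57 to 9.69 in null and 6.68 to 6.96 in wild-type tissue, and 17 of 18 genes of dividing cells fell (median -1.39). Of 6 erythroid markers 5 were higher, summed at 8.04 to 8.30 in null and 6.79 to 7.84 in wild-type tissue. Of 5 salivary markers 4 were lower, summed at 13.48 to 14.04 in null and 13.80 to 14.14 in wild-type tissue. Their part in the member values was not tested. The 5 calls became 0 without null replicate 1 or 3 or wild-type replicate 1, 2 or 3, and the median turned to 0.034, 0.02 and 0.006 without null replicates 1 and 3 and wild-type replicate 3. Each of the 5 named probe sets lost the call without at least 5 single arrays (adjusted p = 0.0526 to 0.17).

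In brain no member passed. Of 103 tested, 0 were called by limma, against 0.0% over all probe sets in either direction, and 14 had an unadjusted p under 0.05, as did 1426 of all 13577 probe sets. The median difference was -0.06, against 0.01 over all, with 62 of 103 lower by their means. The groups did not overlap in 13 lower members, against 7.53% over all probe sets, and in 7 higher ones, against 8.14%. Per-array medians were -0.15, 0.03 and -0.01 for null and -0.02, 0.06 and -0.04 for wild-type brain, with overlap. Of 19 genes of dividing cells 14 had lower means, summed at 11.63 to 11.70 in null and 11.77 to 11.86 in wild-type brain. All 8 skeletal muscle markers had higher means, summed at 6.60 to 10.14 in null and 6.55 to 6.94 in wild-type brain. So did all 9 hepatocyte markers, at 12.30 to 12.38 and 12.10 to 12.33. The part of these genes in the member values was not tested. The member median was -0.005, -0.095 and -0.068 without null replicates 1, 2 and 3.

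The smallest p-values in brain belonged to Mrpl44, Mrps24 and Mrps34. Mrpl44, a relative of RNase III in the large subunit, read 7.92, 7.74 and 7.44 in null and 8.46, 8.11 and 8.54 in wild-type brain for probe set 1437391_x_at, a difference of -0.67 ± 0.16 (SE, adjusted p = 0.318). The other 2 probe sets for Mrpl44 differed by -0.12 and -0.02. Mrps24 (1438563_s_at) differed by -0.42 ± 0.14 (SE, adjusted p = 0.39). Mrps34, a mitochondria-specific small-subunit protein, was higher at 8.67, 8.46 and 8.46 in null and 8.22, 8.30 and 7.89 in wild-type brain, a difference of 0.39 ± 0.14 (SE, adjusted p = 0.398).

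Across tissues, 31 of the 74 genes (41.9%) passed in at least 1 tissue, against 32.3% of the 10161 genes with a single symbol tested in any tissue. Of the 31, 29 were lower wherever they passed (39.2% of the 74, against 16.4% of all genes), Mrps9 was higher, and Mrpl15 was lower in stomach and higher in liver and salivary tissue. Over all genes 14.3% were higher wherever they passed and 1.61% passed in both directions. The 6 genes that passed in more than 1 tissue were Mrpl15, Mrpl22, Mrpl49, Mrps15, Mrps24 and Mrps9. Of the 101 probe sets tested in every tissue, 19 (18.8%) were lower by their means in all 5 tissues, against 7.88% of all probe sets tested in every tissue, and 4 were higher in all 5, against 10.9% of all.

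**Figure D4:**
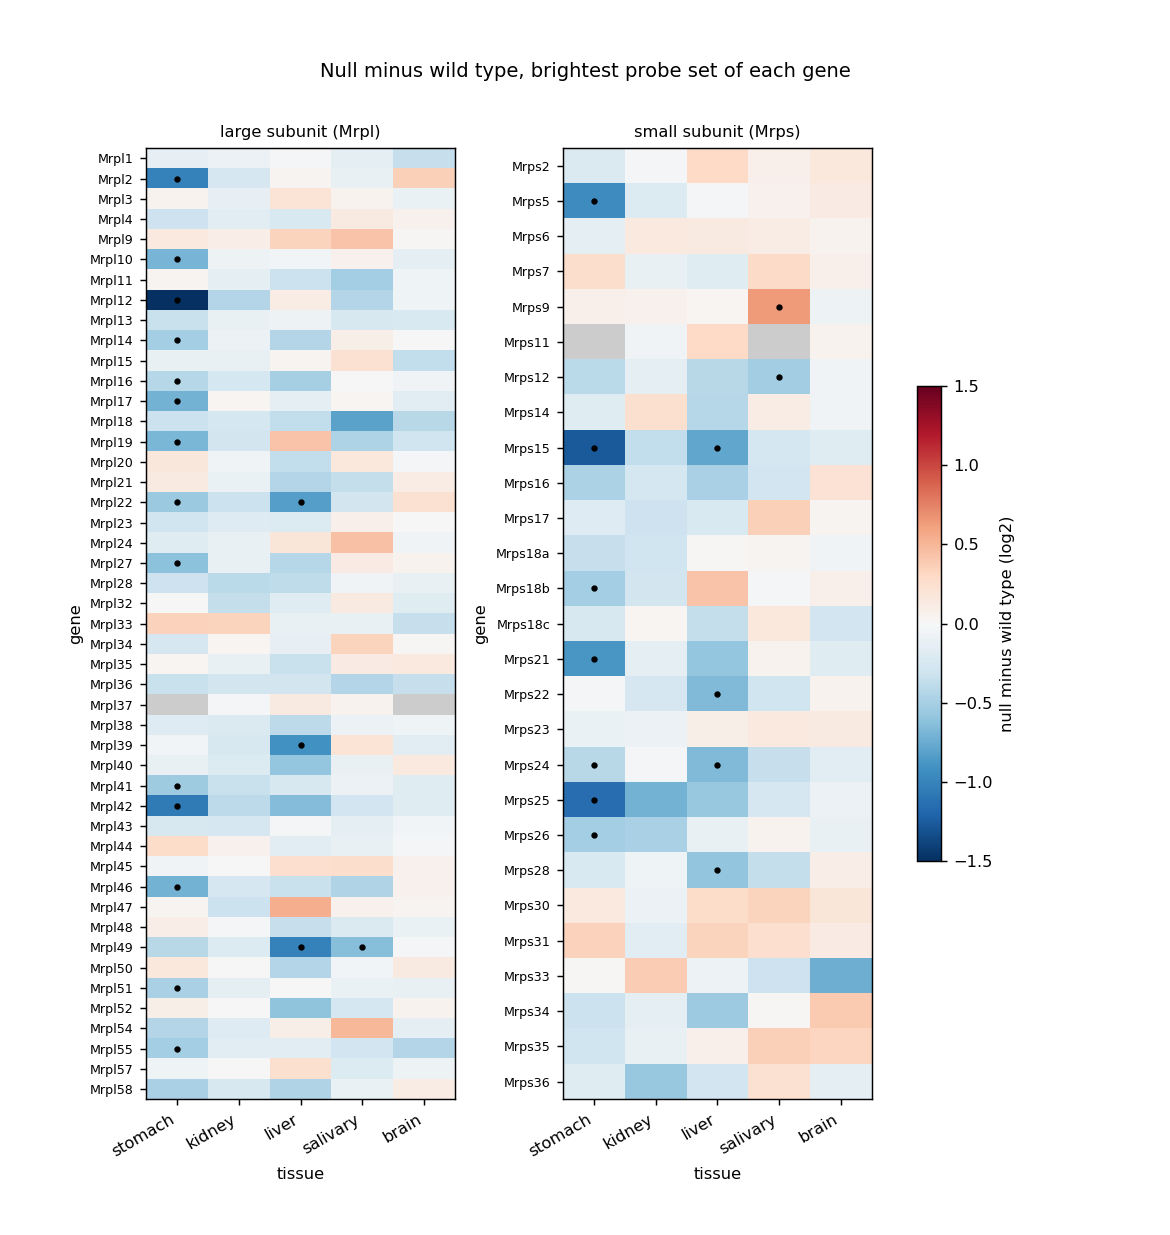
Null minus wild-type difference (log2, colour from -1.5 to 1.5) of the brightest probe set of each of the 74 genes in 5 tissues, large-subunit names at the left and small-subunit names at the right, with a dot where the adjusted p was under 0.05 and grey where not tested. Stomach carries 21 dots, all on lower genes, liver 7, all lower, and salivary tissue 2 lower and 1 higher (Mrps9).

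On average over the 5 tissues, fitted on all 30 arrays, 32 of 106 tested member probe sets (26 genes) fell and 4 (3 genes) rose, against 11.1% lower and 11.4% higher over all probe sets. The median was -0.15 over the members and 0.03 over all. Large-subunit names gave 21 falls and 3 rises in 72, and small-subunit names 11 falls and 1 rise in 34. Without the stomach arrays 19 fell and 3 rose. Arrays of different tissues that share a genotype and a number deviated together more than those with different numbers, and with genotype and number as a random block, an alternative chosen after seeing the data, 27 fell and 4 rose.

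The largest average falls were in Mrpl49, Mrps15, Mrps25, Mrpl12 and Mrpl42. The 2 probe sets for Mrpl49 differed by -0.60 ± 0.09 (SE, adjusted p = 2.37e-05) and -0.46 ± 0.07 (SE, adjusted p = 5.69e-05), and were lower in all 5 tissues, least in brain (-0.07 and -0.02). Mrps15 differed by -0.57 ± 0.14 (SE, adjusted p = 0.00415), Mrps25 by -0.55 ± 0.09 (SE, adjusted p = 0.000116) and Mrpl42 by -0.51 ± 0.08 (SE, adjusted p = 6.66e-05), each lower in all 5 tissues by its means. Mrpl12 averaged -0.515 ± 0.13 (SE, adjusted p = 0.00523) and was lower in 4 tissues. Its average rested on the stomach, without which the adjusted p was 0.379, and that of Mrps15 then had an adjusted p of 0.0569.

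The average rises were on probe sets for Mrpl15, Mrps9 and Mrpl9. Mrpl15 (1434970_a_at) averaged 0.555 ± 0.17 (SE, adjusted p = 0.0173) and lost the call without liver or without salivary tissue (adjusted p = 0.164 and 0.114). Mrps9 (1439210_at) averaged 0.29 ± 0.08 (SE, adjusted p = 0.00705) and lost it without stomach (adjusted p = 0.107). Mrpl9 averaged 0.20 ± 0.06 (SE, adjusted p = 0.00995) and lost it without salivary tissue (adjusted p = 0.0957). A second Mrpl15 probe set (1430798_x_at) averaged 0.22 ± 0.07 (SE, adjusted p = 0.0311) and lost it without brain, kidney or liver and without 8 of the 30 single arrays (adjusted p = 0.0506 to 0.256). The other tested Mrpl15 probe sets averaged -0.16, -0.21 and, on the brightest, -0.07, and did not pass. The probe sets for Mrpl15 thus disagree on average too.

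The 4 genes whose promoters hold the ERR core were all among those lower on average, 4 of 23 promoters of such genes (17.4%), against 0 of 48 other member promoters. Mrpl36, the large-subunit counterpart of a small bacterial zinc-binding protein, differed by nearly the same amount in every tissue. Its differences were -0.33 in stomach, -0.27 in kidney, -0.28 in liver, -0.44 in salivary tissue and -0.35 in brain, none of which passed alone, and its average was -0.335 ± 0.07 (SE, adjusted p = 0.000682). Its differences did not vary between tissues beyond the test threshold (F test, adjusted p = 0.962), and it was chosen after its values were seen. The split of the promoters uses the measured averages, so it is a description with no test.

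Whether the genotype difference itself varied between tissues was tested for each probe set, and 12 of 106 members passed (limma F test), against 15.3% of all probe sets. Mrpl2 led (adjusted p = 0.00959), with differences of -1.01 in stomach, -0.25 in kidney, 0.04 in liver, -0.11 in salivary tissue and 0.36 in brain. Mrps5, Mrpl12, Mrpl22, Mrpl39 and Mrpl49 followed (adjusted p = 0.0144 to 0.0241). Mrps5 and Mrpl12 were lowest in stomach, and Mrpl22, Mrpl39 and Mrpl49 in liver, with differences of -0.82, -0.90 and -1.01 there. The count was 4 without the stomach arrays, 5 without the liver arrays, and 6, 7, 5, 7 and 7 without null liver replicate 1, wild-type brain replicate 3, wild-type liver replicate 3, wild-type salivary replicate 2 and wild-type stomach replicate 3.

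A pair of members has overlapping promoter windows. Mrpl46 and Mrps11 lie head to head on chromosome 7 with 41 bases between them, and their promoter windows share 141 bases on opposite strands. Mrpl46 fell in stomach as given above. Mrps11, whose bacterial counterpart sits on the platform of the small subunit, was under the filter in stomach and was not tested there, with 4.86, 4.94 and 4.41 in null and 5.74, 5.92 and 5.50 in wild-type stomach. Both genes thus had all null stomach values below the wild-type ones. In liver Mrpl46 differed by -0.33 and Mrps11 by 0.30, and neither passed.

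Proteins of the mitochondrial ribosome under other names were tested too. Of 4 tested in stomach, Gadd45gip1 of the large subunit fell by 0.90 (adjusted p = 0.041) and Dap3 of the small subunit by 0.55 (adjusted p = 0.0159), while in the other tissues limma called 0, with 0 or 1 at an unadjusted p under 0.05. Of 7 initiation, elongation, release and recycling factors of mitochondrial translation, limma called 0 in any tissue, with 3 at an unadjusted p under 0.05 in liver and 0 or 1 in each other tissue. Of the 10 or 11 tested assembly factors it likewise called 0 in any tissue, with 0 or 1 at an unadjusted p under 0.05. Among the mitochondrial tRNA synthetases and amidotransferase subunits, Tars2 was the 1 of 8 tested that passed in stomach, where it fell by 1.09 (adjusted p = 0.00274), and Qrsl1 the 1 of 9 in salivary tissue, where it fell by 0.86 (adjusted p = 0.00928). Of all probe sets, 23.5% passed in stomach and 8.22% in salivary tissue. Of 9 tested genes for expression of mitochondrial DNA, 1 passed in each of these tissues. It was Polg2, a subunit of the mitochondrial DNA polymerase, which rose by 0.48 in stomach and by 0.62 in salivary tissue (adjusted p = 0.0379 and 0.0283).

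Cytosolic ribosomal proteins, which serve the other translation system of the cell, had a median above 0 in stomach. Of 41 genes 12 rose and 1 fell (median 0.19), against 11.2% higher and 12.2% lower over all probe sets. In the other 4 tissues limma called 0, with 2 to 11 at an unadjusted p under 0.05. Over all probe sets 0.781% passed in kidney, 6.93% in liver, 8.22% in salivary tissue and 0.0% in brain. An unadjusted p under 0.05 was reached by 1426 of all 13577 probe sets in brain and up to 3184 of 13576 in salivary tissue. Other regulators in stomach were Ppargc1a, which rose by 0.96, Myc, which rose by 0.56, and Pprc1, a relative of Ppargc1a, which fell by 0.47 (adjusted p = 0.0456, 0.0258 and 0.037).

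In wild-type mice the members had smaller ranges between tissues than probe sets at large. Of 108 tested over the 15 wild-type arrays, 82 (75.9%) differed between tissues (limma F test), against 86.8% of all probe sets. The range between the highest and the lowest tissue mean had a median of 0.67, against 1.29 over all, and exceeded 1 for 22 members (20.4%), against 62.6% of all.

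**Figure D5:**
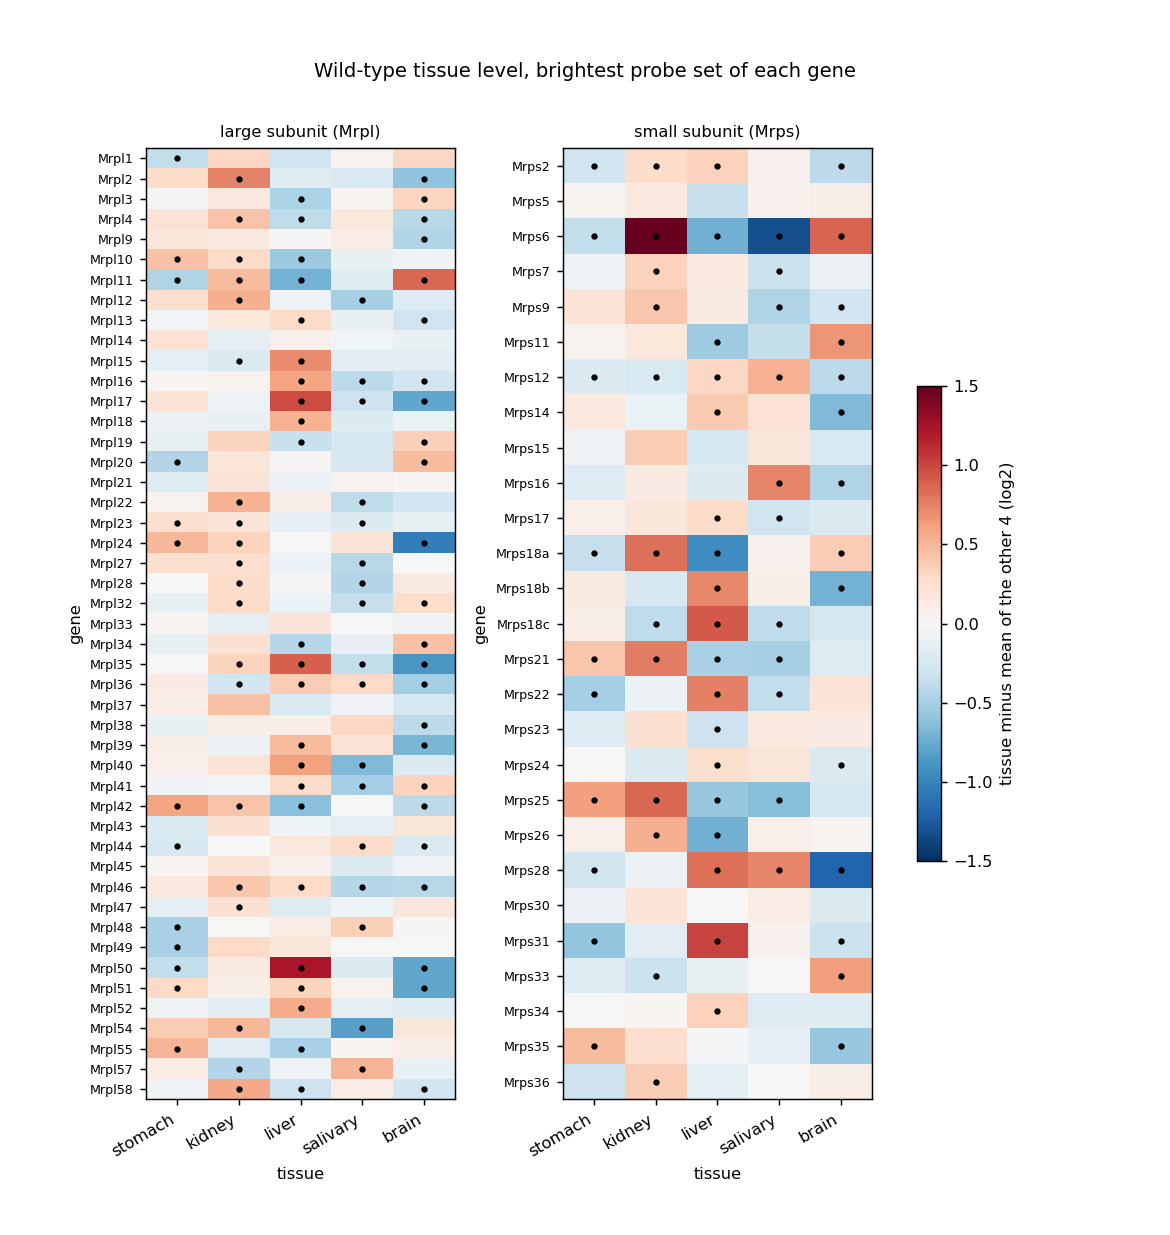
Wild-type level of the brightest probe set of each of the 74 genes as the tissue mean minus the mean of the other 4 tissues (log2, colour from -1.5 to 1.5), large-subunit names at the left and small-subunit names at the right, with a dot where the adjusted p was under 0.05. Mrps6 stands out as high in kidney and low in salivary tissue, and Mrps28 as high in liver and low in brain.

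On the deposited values, the share of members higher in kidney and in liver was not far above that of all probe sets. The share that was lower lay under that of all probe sets in both. Which of the 2 tissues had the higher member median depended on the scaling. In kidney 29 of 108 were higher and 7 lower than in the other 4 tissues, against 24.8% and 17.0% of all probe sets. In liver 32 were higher and 23 lower, against 24.1% and 40%. The medians were 0.15 in kidney and 0.02 in liver, against 0.05 and -0.16 over all. With equal array medians they were 0.094 in kidney and 0.143 in liver, where 19 and 40 members were higher, and with quantile normalization 0.098 and 0.138, where 22 and 38 were higher. In stomach 10 were higher and 19 lower, against 20.3% and 22.4% of all. In salivary tissue 9 were higher and 25 lower, against 24.8% and 21.9%, and in brain 17 were higher and 29 lower, against 32.2% and 33.0%. Cytosolic ribosomal proteins were set out differently, with 64 of 83 probe sets higher in salivary tissue and 65 of 83 lower in brain.

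Mrps6, a small-subunit protein with a bacterial counterpart, had the widest range after a dim Mrps25 probe set described below. It averaged 8.31 ± 0.20 in kidney, 7.80 ± 0.19 in brain, 6.81 ± 0.11 in stomach, 6.53 ± 0.33 in liver and, lowest, 6.05 ± 0.17 in salivary tissue (SD, n = 3 each). Stomach and liver lay within their spread. Mrps28 averaged 8.43 ± 0.03 in liver, 8.36 ± 0.12 in salivary tissue, 7.70 ± 0.05 in kidney, 7.55 ± 0.16 in stomach and 6.81 ± 0.18 in brain. Its liver and salivary levels did not differ beyond their spread, nor did kidney and stomach. Mrpl50, a mitochondria-specific large-subunit protein, averaged 8.50 ± 0.06 in liver and 6.90 ± 0.10 in brain for probe set 1424164_at. That probe set read 7.22 to 7.63 in the other 3 tissues. The other tested probe set for Mrpl50, 1451266_at, was highest in brain at 7.01 ± 0.15, with 6.96 ± 0.16 in liver. The probe sets for Mrpl50 thus disagree on brain.

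Other members were high or low in single tissues. Mrps25 (1449194_at) averaged 7.39 ± 0.15 in kidney and 7.20 ± 0.05 in stomach, against 6.49 ± 0.23 in brain, 6.25 ± 0.39 in liver and 6.19 ± 0.22 in salivary tissue. Mrpl11, a protein of the stalk base, averaged 9.05 ± 0.215 in brain and 7.79 ± 0.185 in liver for probe set 1437131_x_at. Mrps16, a small-subunit protein with a bacterial counterpart, averaged 8.40 ± 0.31 in salivary tissue and 7.45 ± 0.11 to 7.91 ± 0.15 elsewhere. Mrpl15 was lowest in kidney on probe set 1430798_x_at (5.98 ± 0.19, adjusted p = 0.00663 by limma), a call lost without wild-type kidney replicate 1 (adjusted p = 0.0537). On probe set 1434970_a_at it was lowest in stomach (6.46 ± 0.18, adjusted p = 0.0307 by limma), which was lost without wild-type stomach replicate 1 or 2 (adjusted p = 0.106 and 0.108), and that probe set did not pass the F test over tissues (adjusted p = 0.119).

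Some dim probe sets had wide ranges and a large spread between arrays. Mrps25 (1418716_at) ranged over 2.57, with 3.17 ± 1.53 in liver and 5.50 to 5.74 elsewhere. Mrpl1 (1450948_a_at) averaged 6.18 ± 0.32 in liver and 4.04 ± 1.54 in salivary tissue, and lost its liver call without wild-type liver replicate 1 (adjusted p = 0.058) and its salivary call without wild-type salivary replicate 1 (adjusted p = 0.125). Mrpl19 (1450405_at) averaged 5.74 ± 0.08 in stomach and 4.03 ± 0.94 in liver, and lost its stomach call without wild-type stomach replicate 1, 2 or 3 or wild-type kidney replicate 3 (adjusted p = 0.0504 to 0.108). In null stomach, where it was under the filter and not tested, it read 3.98, 4.53 and 4.33, against 5.81, 5.76 and 5.66 in wild-type stomach.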

How the data were processed

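RNA of 30 samples was hybridised to Affymetrix MOE430A arrays. The deposited values are log2 signals, 1 table per array. Per the submitters' processing notes the tool was MAS5, with no settings stated. MAS5 signals of dim probe sets vary widely between arrays, so probe sets under the 40th percentile of means were not tested. Values were used as deposited, without further normalization.

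Groups came from the sample labels. Each tissue was fitted with limma 3.58.1 in R 4.3.3 (6 arrays, mean-variance trend), and p-values were adjusted over all tested probe sets by the Benjamini-Hochberg method at 0.05. The average over tissues and the difference between tissues came from a fit of all 30 arrays in 10 groups, and tissue levels from the 15 wild-type arrays, both on probe sets that reached the percentile in at least 1 tissue. The fits were tested on simulated data. Genes with several probe sets are shown per probe set, or by the brightest probe set over the 30 arrays. In each tissue the text names up to 10 largest falls and 6 largest rises past the threshold, or the 3 smallest p where fewer than 3 passed, and on average the 6 largest of each direction. For the difference between tissues it names the 6 smallest p, for wild-type levels the 2 highest and 1 lowest differences per tissue, and for other lists up to 3 called members. The regulators that rose in liver go past that limit and are all named. The members, the gene lists and the rule were chosen with earlier results of these data known.

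Replicate numbers do not pair the samples: among 15 same-numbered null and wild-type pairs, deviations correlated at -0.239 to 0.143. Between tissues of a genotype, same-numbered arrays correlated at a median of 0.116 in null and 0.076 in wild-type mice, against -0.033 and -0.036 for different numbers. No 2 arrays were duplicates. Alternatives covered normalization, filter, trend, floor, array weights, covariates, blocks and omitted arrays. Arrays give no read depth.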

Additional observations from a re-analysis of the deposited data

Results flagged for a closer look

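The difference between null and wild-type mice varied between the 5 tissues for 12 member probe sets (limma F test, adjusted p under 0.05), a share below that of all probe sets (15.3%). Mrpl2 (adjusted p = 0.00959), Mrps5 (adjusted p = 0.0144), Mrpl12 (adjusted p = 0.0156) and Mrps11 (adjusted p = 0.0455) were lowest in stomach, Mrps11 with differences of -0.98 in stomach, where it was dim, and 0.30 in liver. Those lowest in liver were Mrpl22 (adjusted p = 0.019), both probe sets for Mrpl39 (adjusted p = 0.0238 and 0.0293), Mrpl49 (adjusted p = 0.0241) and Mrps34 (adjusted p = 0.0375), the last at -0.54 in liver and 0.39 in brain. Mrpl47 (adjusted p = 0.044) differed by 0.55 in liver and -0.32 in kidney, Mrpl24 (adjusted p = 0.0459) by 0.44 in salivary tissue and -0.18 in stomach, its lowest, and Mrps33 (adjusted p = 0.0481) by 0.38 in kidney and -0.74 in brain, none passing within a tissue.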

How the results depend on the processing

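Directions were the same under each alternative run for the member probe sets chosen by the naming rule, and the brain count was 0 throughout. The member count in stomach (27) was 3 with Alb as a covariate, 0 with the Gapdh gap, 0 with the mean of the Gapdh and Actb gaps (an alternative chosen after seeing the data), 0 without both wild-type arrays of high Alb, where the lone wild-type array is assumed to vary like the others, and 10 to 31 with 1 array left out. The median there was -0.139 with the mean gaps and -0.287 to -0.163 with 1 array left out. In kidney the count was 1 with equal array medians (median -0.173) and 0 to 1 with 1 array left out (medians -0.138 to -0.112). In liver (9) it was 0 with the Gapdh gap (median -0.242), 0 with the mean gaps, 16 with all 30 arrays, 3 with no filter, 4 with no trend, and 0 to 18 with 1 array left out (medians -0.202 to -0.162). In salivary tissue (5) it was 1 with the Gapdh gap, 8 with all 30 arrays, 3 with the brightest probe set per gene, 2 with equal medians, 0 with the mean gaps, 0 with no filter, 3 with no trend, 3 with quantile normalization, and 0 to 7 with 1 array left out. The salivary median turned to 0.021 with the Gapdh gap, 0.007 with the brightest probe sets and 0.037 with the mean gaps, and ran from -0.133 to 0.034 with 1 array left out. The brain median ran from -0.095 to -0.005. The average count (36) was 22 without stomach and 29 to 41 with 1 array left out. The count that varied between tissues (12) was 5 with the Gapdh gap, 5 without liver, 4 without stomach and 5 to 17 with 1 array left out, and the wild-type count (82) was 78 to 83. The labels do not say that replicate numbers pair the samples. With that number as a block, 20 members passed in stomach, 0 in kidney, 6 in liver, 1 in salivary tissue and 0 in brain. In the same setting 32 passed on average, 5 between tissues and 82 between wild-type tissues. With genotype and number as a random block, 31 passed on average, 13 between tissues and 82 between wild-type tissues. The causes of these shifts were not tested. Signal over background limits the 21 probe sets tested in no comparison of null with wild-type mice.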
